A study of Mus musculus with 5 samples.

Results

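The genes analysed here encode the enzymes that write and remove DNA methylation in the mouse, with 2 of their partner proteins: Dnmt1, Dnmt3a, Dnmt3b, Dnmt3l, Tet1, Tet2, Tet3 and Uhrf1. These 8 genes of 21774 protein-coding genes were taken by their RefSeq symbol. For each gene, DNaseI hypersensitive sites (DHSs, stretches of chromatin that DNase I can reach and cut) were collected at 2 places. A promoter site came within 1 kb of an annotated transcription start site (TSS) of the gene, and TSS up to 500 bp apart were chained into 1 promoter. A non-promoter region lay over 1 kb from every TSS of the gene, inside the gene or up to 100 kb from its TSS, and had the gene as the nearest protein-coding gene.

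DHSs were mapped in 5 populations sorted during blood formation from a mouse embryonic stem (ES) cell line. All 5 came from this line, which is of strain 129, holds GFP under the control of Brachyury (Bry, a gene of early mesoderm), was kept on feeder cells and was then differentiated in embryoid bodies. Mesoderm (MES) was sorted as Bry:GFP+ without Flk1, and the hemangioblast (HB) as Bry:GFP+ with Flk1. Hemogenic endothelium (HE) carried Tie2 and cKit but not CD41, the hematopoietic progenitor (HP) carried CD41, and the macrophage (MAC) carried CD11b. Where 5 values stand in a row, they follow the order MES, HB, HE, HP, MAC. No deletion set the groups apart. Per the study's methods, cytokines were added for the steps after HB. All are products of culture from 1 line, which limits them as models of the embryo. There was 1 list of sites per stage, so no spread between replicates exists, no difference between stages could be tested, and the comparisons below are descriptions. The label of the MAC list names 2 replicates together.

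The lists held 21949, 24729, 33305, 17734 and 37456 sites, with median widths of 800, 900, 1200, 900 and 600 bp. They hold positions without a score or read count. How deeply each stage was sequenced was left out of account, and a promoter without a listed site need not be closed. Among 12 marker genes, the MES and HB lists held a promoter site of T (Brachyury), the HE list one of Tek (which encodes Tie2) and Cdh5, and the MAC list one of Itgam (CD11b) and Csf1r. Itga2b, which encodes CD41, had one in HP and also in HE, a population sorted without CD41. Kdr (Flk1) had one in all 5 stages, although MES was sorted without Flk1. Mesp1, a gene of early mesoderm, had one in MES, HB and HE, Kit (cKit) in MES, HB, HE and HP, and Runx1 in all 5 stages. Tal1 had one from HB on, and Spi1, which encodes the myeloid factor PU.1, from HE on, before the MAC stage.

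Methylation of cytosine in CpG dinucleotides is laid down by Dnmt3a and Dnmt3b on unmethylated DNA. It is copied after replication by Dnmt1, which Uhrf1 brings to hemimethylated sites. Dnmt3l has no catalytic activity of its own and stimulates the de novo enzymes, mainly in germ cells. Tet1, Tet2 and Tet3 oxidise methylcytosine, the start of active demethylation. Promoters rich in CpG are usually kept free of methylation, and Dnmt3a and Tet2 are known as genes that are often mutated in blood cancers.

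At their promoters, 6 of the 8 genes had a site in all 5 stages, whereas Dnmt3b had one in HB and HE and Dnmt3l in MAC. The 8 genes have 70 annotated transcripts with 44 TSS positions in 22 separate promoters, of which 14 include a curated TSS and 8 rest on predicted transcripts alone. By stage, 6, 7, 7, 6 and 7 of the 8 genes had a promoter site. Over all protein-coding genes the share was 55.5%, 57.1%, 59.9%, 48.6% and 48.7%. A site in all 5 stages was found at 42% of all genes and in no stage at 34.3%, against 6 and 0 of the 8. With curated TSS alone the counts were 6, 7, 7, 6 and 6 genes, and 5 genes had a site in all stages, because Dnmt3a lost MAC. When each list was cut to its 17734 widest sites, the length of the HP list, 3 genes had a promoter site in MAC and 3 in all stages. The same limit took the share of all genes from 48.7% to 38.7% in MAC and from 42% to 34.4% in all stages. By curated TSS the share of all genes was 56%, 57.6%, 60.4%, 49% and 48.6%, and 42.4% had a site in all 5 stages.

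**Figure D1:**
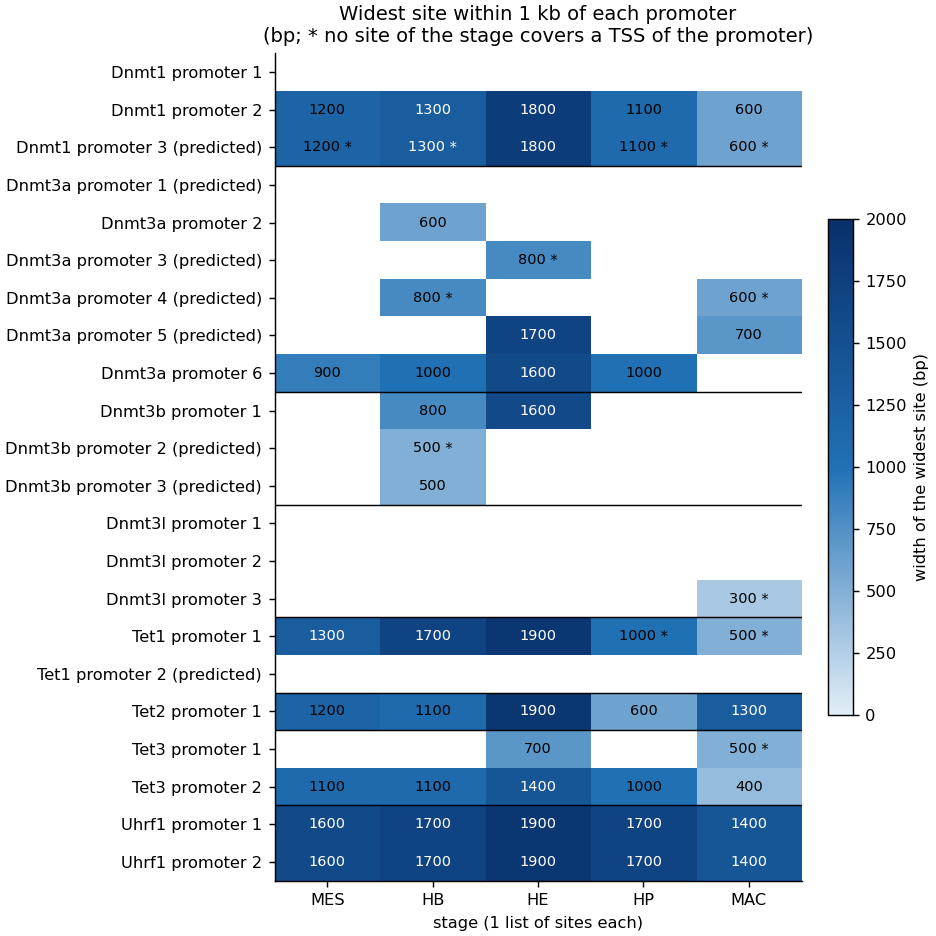
Widest site within 1 kb of each of the 22 promoters (rows, numbered from the 5′ end of each gene) in each stage (columns), with its width in bp as number and colour. White means that no site was listed. Uhrf1, Tet2, Tet3 promoter 2, Tet1 promoter 1 and Dnmt1 promoter 2 have a site in all 5 stages, while Dnmt3a promoter 6 has one in MES, HB, HE and HP and none in MAC.

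Dnmt1 (chr9:20907206-20959888, GRCm38/mm10, reverse strand), the maintenance methyltransferase, had 1 curated promoter with sites in every stage and 1 with none, and a predicted promoter reached by the same sites. The promoter at chr9:20952979, whose transcripts code for proteins of 1502 to 1679 amino acids, was covered by a site in each stage, with widths of 1200, 1300, 1800, 1100 and 600 bp. The promoter 6909 bp further upstream, at position 20959888, starts the transcript of a 1501-residue protein, the form known from oocytes. No site came within 1 kb of it in any stage. The nearest were 6488 to 6588 bp away in MES, HB, HE and HP, which are the sites at the promoter at 20952979, and a 200-bp site 1713 bp away in MAC. The predicted TSS at position 20951909 was covered by the wide HE site alone, and in the other stages the sites of the promoter at 20952979 ended 192 to 592 bp short of it.

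The 250 bases before both curated Dnmt1 starts are shown because their CpG content differed, with each CpG in capitals, 5′ to 3′ along the gene, as the RefSeq promoter windows for GRCm38 give them (15 windows matched, for all 8 genes).
Dnmt1 promoter 1 (no site), chr9:20959889-20960138, reverse strand: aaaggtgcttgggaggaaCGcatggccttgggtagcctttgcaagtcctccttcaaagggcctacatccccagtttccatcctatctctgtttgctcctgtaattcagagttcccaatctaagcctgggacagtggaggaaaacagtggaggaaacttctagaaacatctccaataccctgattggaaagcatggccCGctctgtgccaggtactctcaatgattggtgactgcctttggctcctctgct
Dnmt1 promoter 2 (site in all 5 stages), chr9:20952980-20953229, reverse strand: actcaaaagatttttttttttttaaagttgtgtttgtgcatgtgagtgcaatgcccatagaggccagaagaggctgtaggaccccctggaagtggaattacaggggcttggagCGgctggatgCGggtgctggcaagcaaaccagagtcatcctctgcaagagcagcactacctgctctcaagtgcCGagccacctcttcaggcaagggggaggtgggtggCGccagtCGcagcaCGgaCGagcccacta
The first holds 2 CpG and the second 7. In the window from 250 bp before to 50 bp after the start, the first had 2 CpG, more than 11.4% of 21255 such windows of coding genes, and the second had 12, against a median of 13. The RefSeq window of a start further downstream in the same open promoter had 33 CpG, more than 88.7% of windows.

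Uhrf1 (chr17), which binds hemimethylated CpG and recruits Dnmt1, had the widest promoter sites among the 8 genes in MES, HP and MAC. It shared the widest with Tet1 in HB and with Tet1 and Tet2 in HE. A single site of 1600, 1700, 1900, 1700 and 1400 bp covered both of its promoters, whose starts at positions 56303337 and 56304313 are close together. These sites were wider than the widest promoter site of 97.1%, 95.7%, 83%, 98.3% and 94.2% of the genes with one. Uhrf1 had no non-promoter region in any stage.

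Dnmt3a (chr12:3801559-3914443, forward strand), a de novo methyltransferase, had 6 separate promoters, 1 of them with a site from MES to HP and the others with one in at most 2 stages. The internal promoter at position 3891744 starts the transcript of a 689-residue protein, the short form that prevails in ES cells. It was covered by a site of 900, 1000, 1600 and 1000 bp from MES to HP. In MAC no site reached it. The nearest MAC site was 100 bp wide and lay 1032 bp downstream of the start, just beyond the reach of 1 kb and inside the stretch that the HE site covered. The curated promoter of the 908-residue long form, at position 3806980, had a site in HB alone. That site was 600 bp wide and ended 250 bp upstream of the curated TSS, and it covered predicted starts of the same form. In the other stages the nearest site to that promoter was 1111 bp away in HE, 13516 bp in MAC, 14067 bp in HP and 14229 bp in MES.

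Dnmt3a was thus listed in MAC through predicted starts. The predicted promoter at position 3834695 was covered by a 1700-bp site in HE and a 700-bp site in MAC. The one at 3824521 had an 800-bp site 910 bp downstream in HB and a 600-bp site 446 bp upstream in MAC, which are not the same site. The one at 3809471 had an 800-bp HE site 401 bp upstream, and the one at 3801559 had none. The short-form promoter is also within 1 kb of a start of Gm31623, so its sites cannot be given to Dnmt3a alone.

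The long-form and short-form promoters of Dnmt3a are shown because their openness differed by stage, with each CpG in capitals.
Dnmt3a promoter 2 (long form, site in HB), chr12:3806730-3806979, forward strand: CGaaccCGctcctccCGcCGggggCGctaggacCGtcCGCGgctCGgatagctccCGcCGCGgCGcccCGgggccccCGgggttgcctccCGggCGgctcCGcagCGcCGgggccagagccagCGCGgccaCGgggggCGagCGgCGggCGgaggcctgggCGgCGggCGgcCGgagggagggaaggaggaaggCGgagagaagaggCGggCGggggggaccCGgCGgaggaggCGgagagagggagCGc
Dnmt3a promoter 6 (short form, site in MES, HB, HE and HP), chr12:3891494-3891743, forward strand: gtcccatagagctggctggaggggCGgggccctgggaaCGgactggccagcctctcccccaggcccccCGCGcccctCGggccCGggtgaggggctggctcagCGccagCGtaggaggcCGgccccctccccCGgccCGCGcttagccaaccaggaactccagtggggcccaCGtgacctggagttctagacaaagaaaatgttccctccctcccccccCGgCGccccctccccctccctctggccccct
The long-form stretch holds 38 CpG and the short-form stretch 15. The 300-base window of the long form had 46 CpG, more than 97.9% of windows, and that of the short form had 18, more than 59.7%. The CpG-dense promoter was thus the one with a site in 1 stage. That HB site ended at position 3806730, the first base of the long-form stretch, so the rest of the stretch lay outside it.

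Dnmt3b, the other de novo methyltransferase, had a promoter site in HB and HE alone. The site at its curated promoter (chr2:153649449) was 800 bp wide in HB and 1600 bp in HE and covered the TSS in both. The nearest site to it in MES was 2154 bp away, in the second intron, and in HP and MAC the nearest sites were 15992 and 16387 bp away. A 500-bp HB site also covered a predicted promoter at position 153660761. Dnmt3b and Dnmt3l were the only genes of the 8 without a promoter site in MES and HP.

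Dnmt3l had no site at 2 of its 3 curated promoters, at chr10:78042287 and chr10:78049842, in any stage. Its only promoter site was a 300-bp MAC site, 355 bp upstream of the start at position 78055335, which codes for a 126-residue protein. Of all genes with a promoter site in MAC, 2.48% had a narrower one. A 400-bp MES site began 1076 bp downstream of the first Dnmt3l start and covered a start of Aire, the neighbouring gene, to which it was assigned.

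Tet1, Tet2 and Tet3 each had a promoter open in all 5 stages, but the width and place of the site differed. At Tet1 (chr10:62887324, reverse strand) the sites of MES, HB and HE were 1300, 1700 and 1900 bp wide and covered the TSS. In HP the site was 1000 bp wide and began 314 bp downstream of the nearest TSS of the promoter, and in MAC it was 500 bp wide and began 744 bp downstream. Its HB site was wider than that of 95.7% of genes and its MAC site wider than that of 11.8%. The predicted internal start of Tet1, at position 62868954, had no site in any stage.

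Tet2 (chr3:133544390, reverse strand) had sites of 1200, 1100, 1900, 600 and 1300 bp, and each covered a TSS. Its width went against the median of all genes at the end of the series. The median of the widest promoter site was 1000, 1200, 1600, 1100 and 900 bp from MES to MAC, so the typical promoter site was narrower in MAC than in HP. Of genes with a promoter site, 6.23% had a narrower one than Tet2 in HP and 90.1% in MAC. The 5 other genes with a site in both stages, Dnmt1, Dnmt3a, Tet1, Tet3 and Uhrf1, all had a narrower one in MAC than in HP. For Dnmt3a these lie at different promoters, and its summed width was 1000 bp in HP and 1300 bp in MAC.

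Tet3 (reverse strand) has an upstream promoter for proteins of 1784 to 1803 residues and, at chr6:83441678, a downstream one for a 1668-residue protein. The downstream promoter had a site in every stage, of 1100, 1100, 1400, 1000 and 400 bp, all over the TSS. The upstream promoter at position 83456392 had sites of 600 and 700 bp in HE and 1 of 500 bp in MAC. The 600-bp HE site covered a start of it, and the MAC site lay 465 bp downstream of its nearest start. The downstream promoter is shared with a start of B230319C09Rik within 1 kb.

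**Figure D2:**
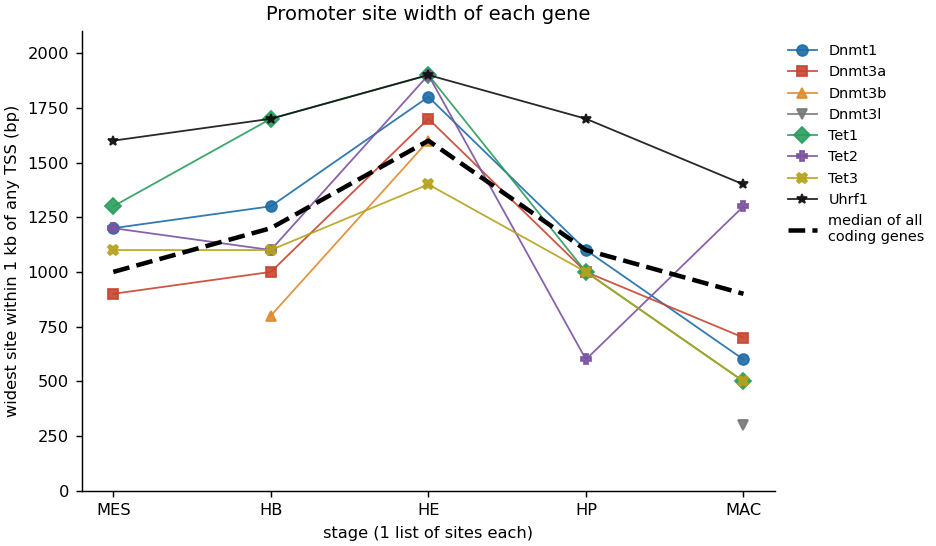
Width in bp of the widest site within 1 kb of any TSS of each gene (points, 1 list per stage), with the median over all protein-coding genes that have a promoter site (dashed line). Lines join the stages of a gene and break where no site was listed. Uhrf1 lies above the median in all 5 stages, and Tet2 is 600 bp in HP and 1300 bp in MAC.

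All 7 genes with a promoter site in HE had their widest one there, the stage with the highest median over all genes. In HE the widest promoter sites of 7 genes ranged from 1400 bp at Tet3 to 1900 bp at Tet1, Tet2 and Uhrf1, and in MAC those of 7 genes ranged from 300 bp at Dnmt3l to 1400 bp at Uhrf1. In MAC, Tet2 and Uhrf1 lay above the median of 900 bp and the other 5 below it. In MES, Dnmt1, Tet1, Tet2, Tet3 and Uhrf1 lay above the median of 1000 bp and Dnmt3a below it. Differences between stages in the median of all genes move with these widths, and their part in the widths of the 8 genes was not tested.

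The 8 genes had 38 non-promoter regions, after sites of all stages were set to windows of 500 bp around their middles and overlapping windows were merged. Dnmt3a had 16 of them, Tet2 9, Tet1 4, Tet3 4, Dnmt1 3 and Dnmt3b 2, and Dnmt3l and Uhrf1 had none. Over all protein-coding genes the median was 1 and the mean 2.09. Of all genes, 99% had fewer regions than Dnmt3a, 94.8% fewer than Tet2 and 80.2% fewer than Tet1 or Tet3. The rule counts regions anywhere inside a gene, and gene length was not taken into account in these ranks. In the genes' own direction, 27 regions lay in introns, 10 upstream of the gene and 1 in an untranslated exon.

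By stage, 8, 5, 15, 6 and 25 of the 38 regions were open. Over all genes 9181, 11201, 17826, 7063 and 23963 of 45446 regions were. At least 1 region was found at 5, 3, 6, 3 and 5 of the 8 genes. Over all protein-coding genes the share with at least 1 was 25.8%, 28%, 37.3%, 21.4% and 42.4%. Of the 38 regions, 27 were open in a single stage, 71.1% against 70.6% of the 45446 non-promoter regions of all genes. Of these 27, 3 (1 of MES, 1 of HE and 1 of MAC) had a deposited site that shares bases with a site of another stage, 11.1% against 5.43% over all genes. MAC alone held 19 of the 38 regions, 50% against 38.9%, HE alone 5, 13.2% against 18.1%, and MES alone 3, 7.89% against 4.53%. None was open in HB alone or HP alone, patterns that made up 6.31% and 2.75% of the regions of all genes. The 0 for HB rests on the predicted TSS, since with curated TSS alone 2 regions, 1 of Dnmt3a and 1 of Dnmt3b, were open in HB alone. The MAC list, which gave most of the regions, was also the longest. With the same 17734 widest sites of each list as above, the counts were 7, 4, 8, 6 and 11. The regions of all genes were not counted under this limit, so these falls have no background beside them.

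**Figure D3:**
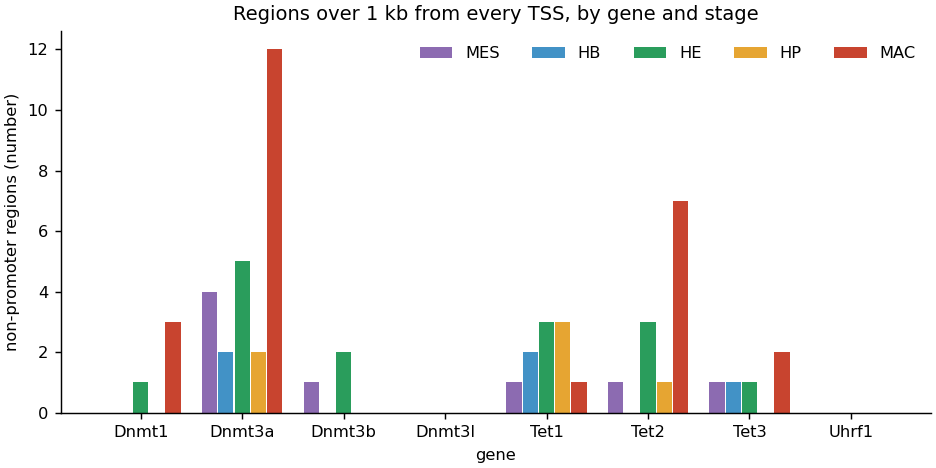
Number of non-promoter regions of each gene open in each stage (bars from 0, 1 list per stage). Dnmt3a has 12 in MAC and 5 in HE, Tet2 has 7 in MAC, and Tet1 has 3 in HE, 3 in HP and 1 in MAC.

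Of the Dnmt3a regions, 4, 2, 5, 2 and 12 were open by stage. The 2 regions open in all 5 stages, 5.26% of the 38 against 3.06% of the regions of all genes, were both upstream of it. No other gene of the 8 had such a region. The first (chr12:3780826-3781907) is centred 25.6 kb upstream of the first curated TSS, inside the neighbouring gene Dtnb. Its sites were 700, 600, 1600, 500 and 1600 bp wide. The second (chr12:3791621-3792257) is centred 15 kb upstream, with sites of 700, 900, 1200, 800 and 700 bp. Another region, in intron 3 (chr12:3855871-3856425, 49.2 kb downstream of the first curated TSS), had a site of 1100 bp in HE and 800 bp in MAC.

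The other 13 regions of Dnmt3a each held windows of 1 stage, 9 of MAC, 2 of HE and 2 of MES. Of these, the MAC region 85.8 kb downstream is the 100-bp site inside the stretch of the HE promoter site, so it is not particular to MAC. The 13 regions reached from 59.3 kb upstream, inside Dtnb, to 105 kb downstream of the first curated TSS. In MAC, 3 of them lay 85.8, 87.8 and 88.4 kb downstream, just beyond the short-form promoter that had no MAC site. Their widths were 100, 600 and 100 bp. When regions were given to the gene whose body is nearest, Dnmt3a had 12 in place of 16. The 3 inside Dtnb and the one 15 kb upstream were lost, and with them both regions open in all 5 stages.

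Tet1 had 4 regions, all intronic, and 3 of them were open in 2 or more stages. The one 21.8 kb downstream of the TSS (chr10:62865177-62865810, intron 2) had sites of 900, 1000, 1500 and 700 bp from MES to HP. The one at 32.2 kb (chr10:62854861-62855426, intron 3) had sites of 700, 1300 and 800 bp from HB to HP. The one at 36 kb (chr10:62850911-62851660, intron 3) had sites of 1200 bp in HE and 500 bp in HP. None of these 3 regions had a MAC site, and the sole MAC region of Tet1, 200 bp wide at 23.5 kb, was open in MAC alone. The 3 shared regions were first listed in MES, HB and HE, in the order in which they lie along the gene, and the MAC region lies between the first and second of them.

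Tet2 had 9 regions, of which 5 lie upstream and 4 in intron 1. The region 56.6 kb upstream (chr3:133600578-133601315) had sites of 1600, 600 and 300 bp from HE to MAC. The region 79.2 kb upstream (chr3:133623166-133623927) had sites of 1500 bp in HE and 800 bp in MAC. Of the remaining 7, 5 were open in MAC alone, at 82.3, 40.8 and 38.8 kb upstream and 2.17 and 18.7 kb downstream. The other two were a 600-bp MES region and a 900-bp HE region at 10.1 and 10.6 kb downstream. Their windows did not merge, but the deposited sites overlapped, and with deposited sites merged at 1 bp Tet2 had 8 regions. No region upstream of Tet2 was listed in MES or HB.

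**Figure D4:**
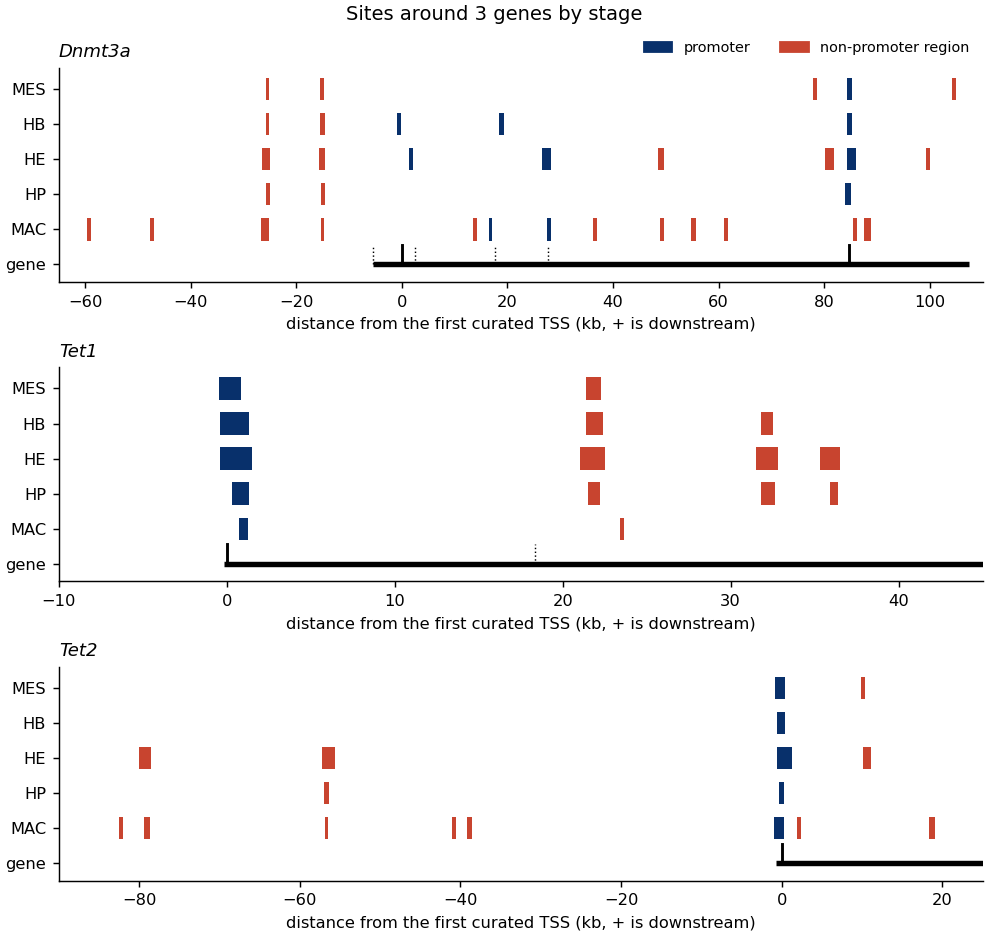
Sites assigned to Dnmt3a, Tet1 and Tet2 in each stage (rows) by distance in kb from the first curated TSS, with promoter sites in blue and non-promoter regions in red. The black bar is the gene, solid ticks are curated and dotted ticks predicted promoters, and the narrowest sites are drawn wider than scale so that they can be seen. The Dnmt3a panel shows the sites 25.6 and 15 kb upstream in all 5 stages, and the Tet2 panel shows upstream sites from HE on.

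Tet3, Dnmt1 and Dnmt3b had fewer regions. Tet3 had a region open in MES and HB, 34.4 kb downstream of its upstream promoter in intron 3 (chr6:83421730-83422247), with sites of 1000 and 1100 bp, and 3 regions of a single stage. Dnmt1 had a region in intron 1 open in HE, with 800 bp, and MAC, with 300 bp (chr9:20943301-20944050), and 2 regions in MAC alone. Dnmt3b had a region in intron 2 open in MES, with 400 bp, and HE, with 300 bp (chr2:153651570-153652140), and 1 in HE alone. It was the only gene of the 6 with regions that had none in MAC.

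The central 200 bases of the regions that the stage patterns above turn on are shown on the forward strand, from GRCm38. Capitals mark matches on either strand to 10 short motifs: TGANTCA (AP-1), GAGGAAG (PU.1), CCGGAAG (ETS), TGTGGTT and the variant ending in C (RUNX), AGATAA (motif of the GATA factors), CAGCTG and also CAGATG (E-box of the TAL1 type), CATTCC (TEAD), TTGCNNAA (C/EBP), AGGGGGC and also AGGTGGC (part of the CTCF motif) and GGGCGG (SP/KLF). A GATA and a PU.1 match may overlap, as in the last stretch.
Dnmt3a, 25.6 kb upstream (all 5 stages), chr12:3781267-3781466: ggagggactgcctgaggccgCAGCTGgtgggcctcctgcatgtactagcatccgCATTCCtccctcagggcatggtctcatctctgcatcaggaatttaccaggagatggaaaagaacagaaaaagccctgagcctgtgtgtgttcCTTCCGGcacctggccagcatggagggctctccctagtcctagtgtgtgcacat
Dnmt3a, 15 kb upstream (all 5 stages), chr12:3791839-3792038: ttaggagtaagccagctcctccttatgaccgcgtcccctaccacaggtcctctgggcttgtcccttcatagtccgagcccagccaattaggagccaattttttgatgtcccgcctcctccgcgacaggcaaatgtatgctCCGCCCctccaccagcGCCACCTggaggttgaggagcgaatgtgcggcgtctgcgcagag
Dnmt3a, 49.2 kb downstream (HE and MAC), chr12:3856048-3856247: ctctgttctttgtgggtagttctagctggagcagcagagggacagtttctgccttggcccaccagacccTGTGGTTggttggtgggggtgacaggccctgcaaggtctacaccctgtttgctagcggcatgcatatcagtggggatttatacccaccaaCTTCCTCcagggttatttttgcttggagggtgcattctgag
Tet1, 21.8 kb downstream (MES, HB, HE and HP), chr10:62865394-62865593: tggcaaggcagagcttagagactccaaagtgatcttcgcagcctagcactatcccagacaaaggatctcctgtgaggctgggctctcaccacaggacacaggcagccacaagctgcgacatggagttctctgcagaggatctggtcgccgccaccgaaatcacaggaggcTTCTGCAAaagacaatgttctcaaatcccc
Tet1, 32.2 kb downstream (HB, HE and HP), chr10:62855044-62855243: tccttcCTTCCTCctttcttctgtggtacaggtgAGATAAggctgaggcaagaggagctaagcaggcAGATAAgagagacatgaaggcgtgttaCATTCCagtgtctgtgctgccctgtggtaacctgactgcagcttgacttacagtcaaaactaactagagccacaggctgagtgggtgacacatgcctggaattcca
Tet2, 56.6 kb upstream (HE, HP and MAC), chr3:133600847-133601046: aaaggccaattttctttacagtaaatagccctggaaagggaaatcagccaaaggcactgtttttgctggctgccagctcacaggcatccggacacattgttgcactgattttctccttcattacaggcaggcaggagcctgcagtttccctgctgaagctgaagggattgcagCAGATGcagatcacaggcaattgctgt
Tet2, 79.2 kb upstream (HE and MAC), chr3:133623447-133623646: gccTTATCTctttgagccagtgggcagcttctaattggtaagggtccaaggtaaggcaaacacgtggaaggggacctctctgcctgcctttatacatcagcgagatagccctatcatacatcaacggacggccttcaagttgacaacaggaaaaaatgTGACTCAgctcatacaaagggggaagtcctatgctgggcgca
Tet3, 34.4 kb downstream (MES and HB), chr6:83421889-83422088: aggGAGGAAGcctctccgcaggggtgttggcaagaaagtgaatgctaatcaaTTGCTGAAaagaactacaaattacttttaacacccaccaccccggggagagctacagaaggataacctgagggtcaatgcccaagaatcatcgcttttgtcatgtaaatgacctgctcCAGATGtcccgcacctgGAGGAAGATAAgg
The Dnmt3a stretch 15 kb upstream holds an SP/KLF and a CTCF-type match, and the one 25.6 kb upstream an E-box, a TEAD and an ETS match. The Dnmt3a stretch open in HE and MAC holds a RUNX and a PU.1 match. The Tet1 stretch first listed in HB holds 2 GATA matches, a PU.1 and a TEAD match. The Tet2 stretch 79.2 kb upstream holds an AP-1 and a GATA match, and the one 56.6 kb upstream an E-box. The Tet3 stretch, open in MES and HB, holds 2 PU.1 matches, a GATA match, an E-box and a C/EBP match. In the Tet1 stretch 21.8 kb downstream there is a C/EBP match. Of the shared regions not shown, that of Dnmt1 holds no match in its central 200 bases. That of Dnmt3b holds PU.1 and CTCF-type matches, and that of Tet1 at 36 kb an AP-1 match.

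Over the central 500 bp of the 38 regions, most of these motifs were about as frequent as over the 45439 non-promoter regions of all genes without unsequenced bases. A GATA match was in 10 of 38, 26.3% against 26.7%, a RUNX match in 21.1% against 22.6%, a PU.1 match in 31.6% against 28.5% and a TEAD match in 28.9% against 29%. An ETS match was in 5.26% against 3.85%, and an SP/KLF match in 10.5% against 14.8%. Shares were higher in the 38 for AP-1 (36.8% against 27%), C/EBP (36.8% against 22.6%), the CTCF letters (36.8% against 19.4%) and the E-box (71.1% against 57.5%). The stages differed in this. A C/EBP match was in 6 of 8 MES regions against 17%, and in 7 of 25 MAC regions against 27.6%. An E-box was in 2 of 8 MES regions against 57.3%, and in 21 of 25 MAC regions against 56%. An AP-1 match was in 9 of 25 MAC regions against 33.1%. With 38 regions of 6 genes these shares are descriptions. A match is not a bound site.

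CpG content was read in 500 bp around the start of each of the 22 promoters. A promoter was called CpG-rich where G and C made up a share of 0.5 or more and the CpG ratio, observed over expected, was 0.6 or more. Of the 22, 8 were CpG-rich and all 8 had a site in at least 1 stage, 5 of them in all 5 stages. Of the other 14, 2 had a site in all stages, 7 in some and 5 in none. The 8 promoters that rest on predicted transcripts are all among these 14, and of the 6 others with a curated TSS 1 had a site in all stages, 2 in some and 3 in none. Over 24161 promoters of coding genes with a curated TSS, 49.1% were CpG-rich. Of the CpG-rich, 68.9% had a site in all stages and 5.61% in none, against 9.74% and 65.6% of the others. Sites were counted within 1 kb of a start, so they need not lie on the 500 bp read. Among the 8 CpG-rich promoters, none lay on them at the Dnmt3a long-form and upstream Tet3 promoters, nor at the Tet1 promoter in HP and MAC.

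Within the 8 genes, a high CpG ratio did not go with a site in every stage at 3 promoters. The long-form promoter of Dnmt3a had a ratio of 1.01 and a site in HB alone. The curated Dnmt3b promoter had a ratio of 0.923 and the upstream Tet3 promoter 0.878, each with a site in 2 stages. The Tet2 promoter, with a ratio of 1.08, had a site in all stages. The short-form promoter of Dnmt3a had a ratio of 0.469 and a site in 4 stages, and the first Uhrf1 promoter fell just short of the limit at 0.596. Dnmt1 promoter 2, at 0.649, and Tet1 promoter 1, at 0.641, lay just above it. The starts without any site had ratios from 0.0338 at the internal Tet1 start to 0.431 at the second Dnmt3l start. Of the 38 non-promoter regions 1 was CpG-rich, the Dnmt3a region 15 kb upstream with a ratio of 0.833, which is 2.63% against 3.12% of all such regions.

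**Figure D5:**
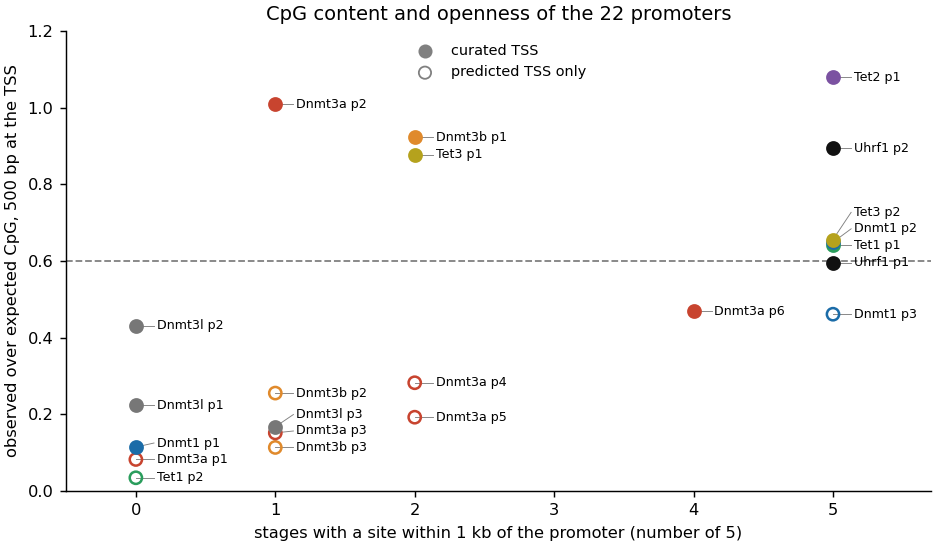
CpG ratio (observed over expected) in 500 bp around each of the 22 promoters against the number of stages with a site within 1 kb (p, promoter number; filled, curated TSS; open, predicted TSS alone; dashed line, 0.6). Dnmt3a promoter 2 lies at 1.01 with 1 stage and Tet2 at 1.08 with 5 stages.

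Genes with a like pattern were looked up among the 2979 genes with at least 3 non-promoter regions and a promoter site in all 5 stages. Likeness was the summed absolute difference in region counts over the 5 stages. Tet1 was matched exactly by Spry1, and Frs2 differed by 1. The closest to Dnmt3a, Colec12 and Jmjd1c, both differed by 4. Baiap2 and Ppp2ca differed from Tet2 by 1, as did 8 genes in all. Zfp568 and Dtx4 matched Dnmt1, among 57 genes that did, and Ptpn3 and Mob2 matched Tet3, among 13.

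Other genes of the pathway, a list of 29 cofactors, methyl-CpG binding proteins, base excision repair enzymes and regulators, had a promoter site in 26, 26, 27, 25 and 23 cases by stage. These are 89.7%, 89.7%, 93.1%, 86.2% and 79.3% of the list, beside the 55.5%, 57.1%, 59.9%, 48.6% and 48.7% of all genes. In all 5 stages 22 had one, 75.9% against 42%. Among the 22 were Uhrf2, Hells, Tdg (the glycosylase that removes oxidised methylcytosine), Mbd1 to Mbd4 and Idh1. Cdca7, the partner of the remodeller Hells, Zfp57, which protects imprinted methylation, and Cxxc4 had a site in MES, HB, HE and HP and none in MAC, as the short-form promoter of Dnmt3a did. Zbtb38 had one in HB, HE and MAC, and Zbtb4 in MES and HE, both being genes of methyl-CpG binding zinc finger proteins. Dppa3, which protects the maternal genome from demethylation, had none in any stage.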

How the data were processed

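DNaseI-seq libraries of 5 stages were analysed, 1 list each. Per the study's methods, the authors trimmed reads with CutAdapt, aligned them with Bowtie to mm10, kept unique reads, dropped duplicates (Picard) and ran DFilter with a bin size of 100 bp to find sites, and HOMER is also in the submitters' processing notes. Versions are not given in the sources used here. The authors deposited the start and end of each site in base pairs, with no other value. Aligned-read totals and peak summits were not used here, so site middles stood in for summits.

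TSS and exons came from RefSeq for GRCm38.p6, which shares its primary chromosomes with mm10. Scripts in Python 3.11.15 with numpy 2.4.6 were tested on simulated sites. The main rule used every annotated transcript, and curated TSS were an alternative. All 8 members are named, with the 2 most alike genes for members with at least 3 regions (ties by promoter width, then symbol). From the pathway list, genes off its most frequent pattern are named, except where an item is not reported here, and regions open in at least 2 stages are described in full. Members and lists were chosen with earlier results of these data known. Motifs were exact consensus matches, chosen without a test. Alternatives changed the reach, TSS set, site width, merging, nearest-gene rule and CpG limits. With no replicates, no test was made.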

Additional observations from a re-analysis of the deposited data

How the results depend on the processing

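Of 81 recomputed counts over the 8 genes, 16 moved by over 1.5 times, and the rest moved by less. When only sites at least as wide as the median of their list were kept, 4 genes kept a promoter site in MAC in place of 7 and 3 had one in all stages in place of 6, while the shares of all genes fell to 40.1% and 31.1%. The non-promoter regions then numbered 2, 3, 8, 0 and 11 from MES to MAC, 17 in all. With the 17734 widest sites of each list, 3 genes had a promoter site in MAC, 3 had one in all stages, and the regions numbered 8 in HE, 11 in MAC and 20 in all. The regions of all genes were not counted under either width limit, so the region counts of the 8 genes there have no background. HB had 8 regions with curated TSS alone and 3 with the nearest gene taken by gene body. No non-promoter region was CpG-rich (0) with a GC share of 0.55 and a CpG ratio of 0.65. At these limits 6 promoters were CpG-rich in place of 8. Those that fell out, Dnmt1 promoter 2 and Tet1 promoter 1, both had a site in all stages. For single genes, 18 of 104 values moved, among them Tet1, with a promoter site in 3 stages at a reach of 100 bp, and Dnmt3l, with 0 at that reach and 2 at 2 kb. Fewer sites entered under both width limits, and the cause of the other changes was not tested. The sequencing depth of the stages was not set against the lists, and its part in a missing site was not tested. No paired analysis was possible because there is 1 list per stage.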

Other observations

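From stage to stage, the non-promoter regions of the 8 genes changed as follows. Between MES and HB, 4 of 8 remained open, 1 opened and 4 closed. From HB to HE, 4 of 5 were kept and 11 opened. From HE to HP, 6 of 15 were kept, none opened and 9 closed. From HP to MAC, 3 of 6 were kept and 22 opened. Over the regions of all genes the share kept was 68.6%, 46.2%, 27.2% and 43.6% at these steps. Of the regions open after each step, 80%, 26.7%, 100% and 12% were open before it, against 56.3%, 29%, 68.7% and 12.8% over all genes. The numbers of the 8 genes are small and the lists differ in length and width. All 6 regions open in HP were already listed in HE, as were 68.7% of the HP regions of all genes.

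The sites of the 19 regions open in MAC alone were 100 to 1100 bp wide with a median of 400 bp, against 500 bp over such regions of all genes. For 1 of the 19, the 100-bp site of Dnmt3a inside the HE promoter site, another stage covers the same bases, and the 18 without it had a median of 450 bp over the same range. The sites of the 6 MAC regions shared with other stages were 300 to 1600 bp wide with a median of 750 bp, against 600 bp over such regions of all genes.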
